A study of Mus musculus with 24 samples.

Results

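Mitosis and DNA replication genes rose in a differentiated mouse hepatocyte line between 12 to 18 h and 20 to 26 h after serum shock. Most other gene groups stayed close to the level of all genes. Of a mitosis list, all 39 genes with a mean log2 level of 5 or more already at 12 to 18 h rose, with a median difference of 2.46 on the log2 scale. Of DNA replication, 37 of 43 such genes rose, with a median of 0.56. Over all 9723 genes, 5.75% rose. The lists were chosen with earlier results of these data known. Without the filter on low values described below, no gene of either list was called. Falls were smaller: 180 genes rose by 1 or more on the log2 scale, and 10 fell by as much. Among the 12 measured genes of the core clock, Cry1 passed the test. Others of the clock moved over a wide range within the 8 arrays without passing the test. The window means of Nr1d1 differed by -1.63 on the log2 scale and those of Per2 by 1.43. Those of Arntl differed by 0.05, although it spanned 2.04 log2 units.

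The comparison set the 4 arrays of 12, 14, 16 and 18 h after the shock against the 4 arrays of 20, 22, 24 and 26 h, which are the first 8 of 24 arrays in the series. All probe sets outside the array's controls with a log2 value of 5 or more on at least 4 of these 8 arrays were used, 18298 of 45037, and they stood for 9723 of 18194 named genes. The cells were MMH-D3, an immortalised line established from the liver of mice carrying a truncated MET receptor transgene. Per the labels, confluent cells were differentiated for 14 days in growth medium with 2% DMSO, synchronised by serum shock, and sampled every 2 h from 12 to 58 h. Every array thus shares the line, the differentiation and the shock, and the labels give no difference between the groups but the time since the shock. No unshocked culture, no array before 12 h and no second line was analysed here.

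Each time point had 1 array, so neighbouring times stood in for replicates. The spread of a window holds the change within it as well as technical error, and the labels do not say that the samples came from separate cultures. The p-values measure only the spread between these arrays, which may be technical in part, and so few arrays limit the precision. The 8 arrays had 39.6% to 41.9% of their values at the table's lowest value, 2.17, and medians over the kept probe sets of 9.069 to 9.119. The array at 26 h had the lowest median correlation with the other 7, 0.9796, and the array at 16 h the highest, 0.9913. Levels are log2 GCRMA values, and a difference of 1 is a 2-fold change. In a bulk sample, more cells in a phase of the cycle and more RNA per cell cannot be told apart.

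The label of hepatocytes was checked against markers. The hepatocyte genes Alb, at a mean log2 level of 16.05 over the 8 arrays, Rbp4, at 14.16, and Hnf4a, at 12.13, were high. The other 5 were not detected above the level of 5: Apoa2, F2, Tat and Cps1 had means of 2.17 and Apoh of 2.41, so 8 of 13 hepatocyte markers on the array were kept. Bile duct markers were present in 4 of 6, with Krt19 at 15.51 and Epcam at 11.26. Of 11 fibroblast and stellate markers only Vim, at 15.59, was kept, and Col1a1, Col3a1, Pdgfrb and Thy1 lay at 2.17 or 2.18. No endothelial marker of 7 and no lymphocyte marker of 5 was kept. Of 7 macrophage markers Cd14, Csf1r and Cd68 were kept, with Ptprc, Adgre1 and Clec4f between 2.17 and 2.26. None of these markers passed the test between the windows. All 8 kept hepatocyte markers were nonetheless lower at 20 to 26 h, where 56.5% of all genes lay below 0. Their median difference was -0.19 on the log2 scale, with Ahsg lowest at -0.88. Against their mean at 12 to 18 h they averaged -0.10, -0.10, -0.32 and -0.66 at 20, 22, 24 and 26 h. Of the 4 kept bile duct markers, 3 were lower as well. The log2 levels of the 13 hepatocyte markers, 5 of them near the lowest value, summed to 112.6 at 12 to 18 h and 110.3 at 20 to 26 h.

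A cell that enters the division cycle first makes cyclins E and D and the enzymes of nucleotide supply and DNA replication, and later the kinases, motors and ubiquitin ligase factors of mitosis. Genes of the first group are known targets of the E2F factors. Genes of the second group are held off in resting cells and switched on in G2 through a promoter element named CHR, often with CCAAT boxes bound by NF-Y nearby, by the DREAM complex, B-MYB and FOXM1. Serum shock, a pulse of serum, both aligns the circadian clocks of cultured cells and delivers growth factors. In the clock, CLOCK and BMAL1, the product of Arntl, switch on the Per, Cry and Nr1d genes, and their products hold CLOCK, BMAL1 and each other back.

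Promoter sequences of the largest rises are shown because many of them share the letters of both elements. They are RefSeq promoters of build GRCm38.p6, given 5′ to 3′ on the gene's strand, with every CHR (TTTGAA) and CCAAT match on either strand in capitals, and each holds the CHR with the nearest box before it.
Ccnb2, chr9:70421531-70421592, minus strand: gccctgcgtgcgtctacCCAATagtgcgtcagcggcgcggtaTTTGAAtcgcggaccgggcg
Ube2c, chr2:164769858-164769919, plus strand: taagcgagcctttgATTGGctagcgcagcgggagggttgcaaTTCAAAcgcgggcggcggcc
Depdc1a, chr3:159495375-159495436, plus strand: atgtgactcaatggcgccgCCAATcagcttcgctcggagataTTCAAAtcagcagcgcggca
Mki67, chr7:135716476-135716537, minus strand: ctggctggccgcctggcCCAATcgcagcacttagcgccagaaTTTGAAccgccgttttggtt
Prc1, chr7:80294404-80294465, plus strand: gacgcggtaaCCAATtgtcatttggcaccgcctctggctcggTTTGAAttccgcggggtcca
The distance from the start of the box to the start of the CHR was 25 bases in Ccnb2 and Mki67, 28 in Ube2c, 23 in Depdc1a and 32 in Prc1. The CHR began 29 bases before the annotated start of Ube2c, 16 before that of Depdc1a, 5 before that of Prc1, 116 before that of Mki67 and 4 after that of Ccnb2. The Ccnb2 promoter, which belongs to the gene of the largest rise among those with both window means at 5 or more, is shown from 250 bases before its start to 30 after it, chr9:70421525-70421804, and holds 3 CCAAT boxes and 2 CHR matches.
Ccnb2: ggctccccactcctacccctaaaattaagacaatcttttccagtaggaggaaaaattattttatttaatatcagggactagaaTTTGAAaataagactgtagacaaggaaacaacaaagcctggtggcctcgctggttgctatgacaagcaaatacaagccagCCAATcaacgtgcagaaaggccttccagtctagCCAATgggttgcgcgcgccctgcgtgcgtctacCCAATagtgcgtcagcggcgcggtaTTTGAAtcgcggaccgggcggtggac

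Searched from 250 bases before the start to 50 after it, 34 of 44 promoters of measured mitosis genes held the CHR, 77.3%, against 11.8% of the 10254 promoters of all tested genes and 17.9% of all 32851 promoters. A CCAAT box stood in 75% of the mitosis promoters and in 37.7% of those of tested genes. It also stood in 57.1% of the promoters of measured replication genes and in 56.2% of those of core clock genes. The CHR and the box together stood in 68.2% of the mitosis promoters, 30 of 44. They stood together in 4.69% of those of tested genes and 6.95% of all. In 15 of those 30, 50.0%, the CHR began 20 to 40 bases after the start of the nearest box before it. The share was 15.0% of the tested genes' promoters with both and 12.4% of all promoters with both. A box lay before the CHR in 29 of the 30, but in 249 of 481 of the tested genes' promoters with both. The span was met in 72 of those 249. It was not part of the planned search. Of the 12 largest rises among genes with both window means at 5 or more, 8 had a listed promoter and 6 of these held both elements, the 5 above and Cdca3, while those of Nusap1 and Nuf2 did not. Matches are a description of these windows, not sites shown to be bound.

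The replication genes' promoters differed in the same search. The E2F letters, TTTCCCGC or TTTGGCGC on either strand, stood in 12 of 42 promoters of measured replication genes, 28.6%, in 2.27% of the mitosis promoters, in 3.08% of the tested genes' promoters and in 1.56% of all promoters. The CHR stood in 11.9% of the replication promoters, close to the 11.8% of tested genes. Stretches from 4 of the 10 replication genes that rose and held the E2F letters are shown with those letters in capitals.
Pola1, chrX:93632270-93632309, minus strand: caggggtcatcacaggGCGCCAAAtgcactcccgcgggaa
Cdc6, chr11:98907997-98908036, plus strand: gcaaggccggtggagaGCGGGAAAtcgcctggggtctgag
Mcm3, chr1:20820283-20820309, minus strand: accataaacttccgtgGCGGGAAAact
Pole2, chr12:69228161-69228196, minus strand: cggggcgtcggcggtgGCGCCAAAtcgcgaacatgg
The core clock genes' 16 promoters held no CHR and no E2F match. Their E-box, CACGTG, to which CLOCK and BMAL1 bind, stood in 2 of the 16, 12.5%, against 10.3% of the tested genes' promoters. The D-box, TTATGNAA, bound by factors such as DBP, and the RORE, bound by the ROR and REV-ERB receptors, stood in 1 of the 16 each, 6.25%, against 2.04% and 0.166%.

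**Figure D1:**
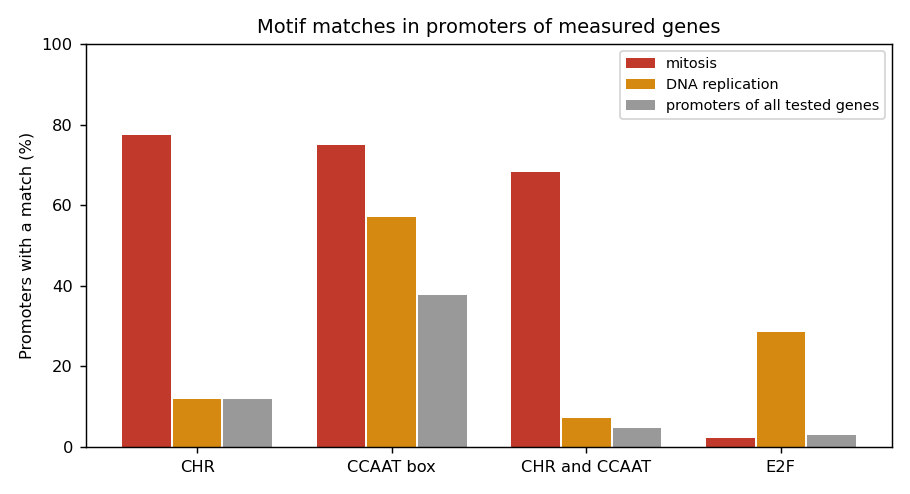
Share of promoters with a match, in percent, for the CHR, the CCAAT box, both together and the E2F letters, for 44 promoters of measured mitosis genes, 42 of measured DNA replication genes and 10254 of all tested genes. CHR and CCAAT together stood in 68.2% of the mitosis promoters, and the E2F letters in 28.6% of the replication promoters.

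Over all genes, limma's moderated test with Benjamini-Hochberg adjustment over the 18298 probe sets called 973 probe sets higher and 605 lower at 20 to 26 h at an adjusted p under 0.05. By gene, 559 of 9723 rose, 5.75%, and 317 fell, 3.26%. The median difference of all genes was -0.029 on the log2 scale, that of the genes that rose 0.628 and that of the genes that fell -0.37. The smallest adjusted p was 0.00615. All arrays of the later window lay above all of the earlier in 882 genes, 9.07%, and below in 828, 8.52%. Of the 559 genes that rose, 455 had the highest of their 8 values at 26 h, and 232 of the 317 that fell had their lowest there. Genes called between the windows mostly have that extreme in the later window, and no share over all genes is given. The array at 26 h also had the lowest median correlation with the others, 0.9796. With 1 array per time, a continuing change and a trait of that array cannot be told apart by these counts. Without the filter on low values, which brought 45037 probe sets into the test, 2 were called higher and 3 lower. Leaving out the array of 24 h gave 163 and 57, and leaving out that of 18 h gave 1619 and 1884.

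The list of mitosis genes had 54 on the array, and 49 passed the filter. These 49 rose, and their windows did not overlap. Their median difference was 2.60, and they ranged from 0.83 to 3.78. Of the 49, 10 had a mean under 5 at 12 to 18 h and may have passed the filter through the later window alone. The other 39, which were at 5 or more in the earlier window, had a median of 2.46. The 5 members below the filter, on the scale of the table, were Cenpe with means of 2.72 and 6.01 in the earlier and later windows, Dlgap5 with 3.14 and 5.65, Cdc25b with 3.66 and 5.44, Cdc25c with 2.41 and 3.64, and Kif15 with 2.21 in both.

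Ccnb2 encodes cyclin B2, a partner of the mitotic kinase CDK1. Its log2 levels were 5.68, 5.19, 6.94 and 6.85 at 12, 14, 16 and 18 h and 8.98, 9.17, 10.23 and 11.21 at 20, 22, 24 and 26 h. No later array was as low as any earlier one, and the difference of the window means was 3.73 ± 0.54 (SE, n = 4 and 4), a 13.24-fold rise, with limma's adjusted p = 0.0111. Ccna2, cyclin A2, stood at 7.0, 6.88, 8.41 and 8.45 and then at 9.82, 9.74, 10.58 and 11.27, a difference of 2.67. The kinase itself, Cdk1, rose by 1.83, from 8.52 at 12 h to 11.67 at 26 h.

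The spindle and chromosome factors behaved alike. Kif20a, a motor of the central spindle, was at 4.29, 4.09, 6.02 and 6.49 in the earlier window and at 8.06, 7.94, 8.87 and 9.84 in the later, a difference of 3.45 ± 0.60 (SE, n = 4 and 4; limma's adjusted p = 0.0132). Tpx2, which activates Aurora A on the spindle, rose by 2.99, Nusap1, a spindle protein, by 3.18, Prc1, which bundles the midzone microtubules, by 2.90, and Nuf2, of the kinetochore, by 2.96. Mki67, the proliferation marker Ki-67, was at 5.14, 5.63, 7.34 and 8.51 and then at 9.06, 9.64, 9.77 and 10.59. Its earlier window spanned the widest range of these genes, with an SD of 1.56, and its difference was 3.11 ± 0.67 (SE, n = 4 and 4; limma's adjusted p = 0.0244). Among the list's members outside the naming rule, Aurkb, a kinase of the chromosome passenger complex, rose by 2.89, the checkpoint kinase Bub1 by 2.89, the passenger protein Birc5 by 2.78 and the topoisomerase Top2a by 2.69.

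Ubiquitin-dependent exit from mitosis was represented by Ube2c, the enzyme that feeds the anaphase-promoting complex. It stood at 6.67, 5.49, 7.33 and 7.59 and then at 9.20, 9.27, 10.34 and 11.48, a difference of 3.30 ± 0.57 (SE, n = 4 and 4; limma's adjusted p = 0.0132) or 9.86-fold. Cdca3, which takes part in mitotic entry, rose by 3.19 with limma's adjusted p = 0.0111. Cdc20, which activates that complex, rose by 1.69. The smallest rises of the list were those of Smc4, a condensin subunit, at 0.83, and Cks2, a CDK subunit, at 0.84.

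Of the 12 largest rises among genes with both window means at 5 or more, 3 were outside the mitosis list. Foxm1, a transcription factor that drives G2 and mitosis genes, was at 4.80, 3.91, 6.33 and 6.30 and then at 8.06, 8.06, 8.91 and 9.48, a difference of 3.29 ± 0.55 (SE, n = 4 and 4; limma's adjusted p = 0.0131). Esco2, an acetyltransferase that establishes sister chromatid cohesion, rose by 3.04 and Depdc1a by 3.20. Of the 180 genes that rose by 1 or more, 55 belonged to the mitosis, replication or G1 list and 119 to none of the lists used.

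**Figure D2:**
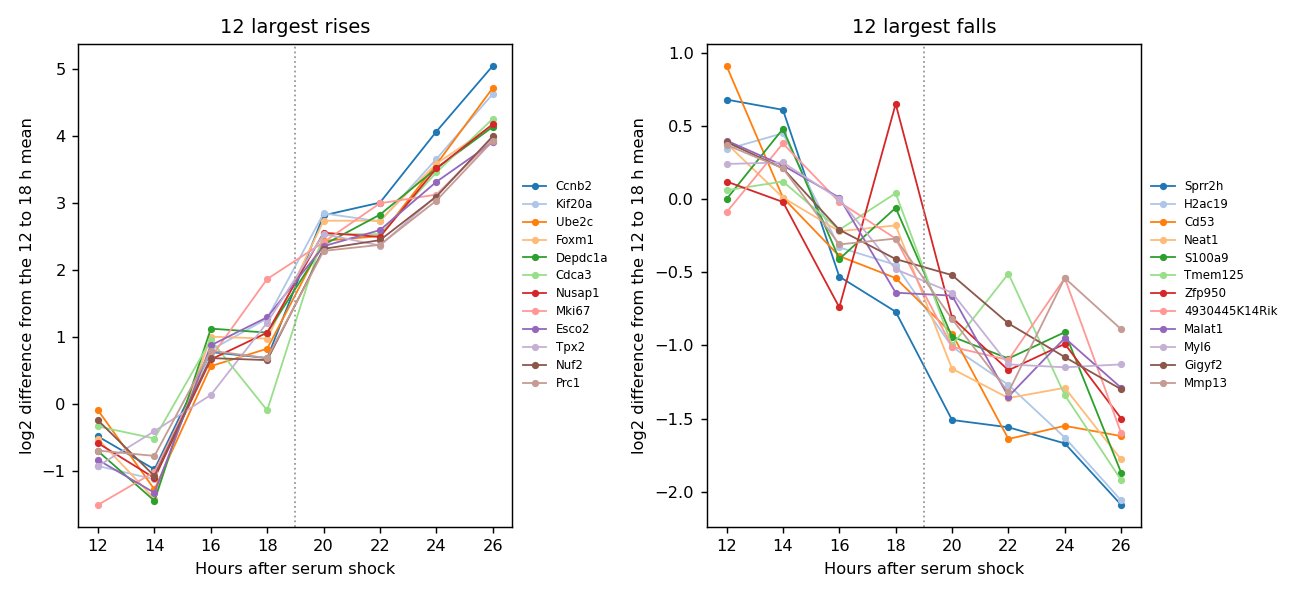
Each line is a gene, plotted as its log2 value minus its own mean at 12 to 18 h against hours after serum shock, for the 12 largest rises (left) and the 12 largest falls (right), 1 array per point, with a dotted line between the windows. Only called genes with both window means at 5 or more and windows apart were ranked. Ccnb2, the largest rise among them, reached 11.21 at 26 h from a mean of 6.17 at 12 to 18 h. Neat1 among the falls went from a mean of 12.97 to 11.57.

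Genes of DNA replication rose by less. Of 45 on the array, 44 were kept, 38 rose, none lay below 0 and 42 had windows that did not overlap. Of the 43 with a mean of 5 or more at 12 to 18 h, 37 rose, and the member below the filter, Orc1, had means of 4.37 and 5.27. Rrm2, the regulated subunit of ribonucleotide reductase, which makes deoxynucleotides, was at 11.10, 11.46, 12.21 and 12.36 and then at 13.04, 13.24, 13.63 and 13.97. The difference was 1.69 ± 0.29 (SE, n = 4 and 4; limma's adjusted p = 0.0132), or 3.22-fold, with the windows apart. Also of nucleotide supply, Tyms rose by 1.17, Rrm1 by 1.15, Tk1 by 0.91 and Dut by 0.64.

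At the replication fork, Pola1, the catalytic subunit of the primase polymerase, gave the smallest adjusted p of the comparison. It stood at 8.16, 8.19, 8.60 and 8.39 and then at 9.45, 9.44, 9.43 and 9.65, so that each window was nearly level and a step lay between 18 and 20 h. The difference was 1.16 ± 0.10 (SE, n = 4 and 4; limma's adjusted p = 0.00615). Cdc45, a part of the replicative helicase, rose by 1.39 ± 0.22 (SE, n = 4 and 4; limma's adjusted p = 0.0130), from 5.18 at 12 h to 7.63 at 26 h. The helicase subunits Mcm2, Mcm3, Mcm4, Mcm5, Mcm6 and Mcm7 rose by 0.51, 0.60, 0.61, 0.48, 0.43 and 0.39. The sliding clamp Pcna rose by 0.48. The licensing factor Cdc6, whose promoter stretch is shown above, rose by 0.84, and Pole2, of polymerase epsilon, by 0.49. Those not past the threshold were Pole at 0.73, Gins3 at 0.71, Mcm10 at 0.64, Pold1 at 0.32, Gins1 at 0.24 and Pold2 at 0.19.

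Of the G1 list, 9 of 19 kept genes rose and none fell, with a median of 0.39. Ccne2, cyclin E2, which drives entry to S phase, was at 8.58, 9.41, 9.70 and 9.94 and then at 10.63, 10.54, 10.98 and 11, a difference of 1.38 ± 0.26 (SE, n = 4 and 4; limma's adjusted p = 0.0159). Ccne1, cyclin E1, climbed from 6.70 at 12 h to 9.48 at 26 h, a difference of 1.37 (limma's adjusted p = 0.043). Inhibitors of CDK4 and CDK6 rose as well: Cdkn2d by 1.06, from 8.13 at 12 h to 9.87 at 26 h, and Cdkn2c by 0.92. The D cyclins rose less, Ccnd2 by 0.50, Ccnd3 by 0.39 and Ccnd1 by 0.31. The inhibitors Cdkn1a, at 0.10, and Cdkn1b, at 0.08, and the kinases Cdk4, at 0.12, and Cdk6, at 0.01, did not pass the test.

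The medians of the 3 groups for the time at which a gene passed the middle of its range lay close together. Interpolated between arrays, the median over the genes that rose was 19 h for replication, with an interquartile range of 18.8 to 19.3 h, 19.3 h for G1, with 18.9 to 19.4 h, and 19.1 h for mitosis, with 18.8 to 19.5 h. These ranges overlap, and the sampling step was 2 h. Only genes called between the windows were timed, and that choice favours genes that pass their middle near the boundary of the windows. The closeness of the medians therefore cannot show whether the 3 groups rose at the same time. The 9 G1 genes ranged from 15.3 h for Ccne1 and 16.8 h for Ccne2 to 20.6 h for Cdkn2c and 21.1 h for Cdkn2d. All 49 mitosis genes and 32 of the 38 replication genes had their highest value of the 8 arrays at 26 h, the last array. The range and its middle are thus those of these 8 arrays only. Of the mitosis genes, 24 were lowest at 12 h and 23 at 14 h. Of the replication genes, 32 were lowest at 12 h.

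Set against their own mean at 12 to 18 h, the 49 mitosis genes averaged -0.50 and -0.56 at 12 and 14 h and 0.47 and 0.59 at 16 and 18 h. They then averaged 1.91, 1.99, 2.67 and 3.41 at 20, 22, 24 and 26 h. The profile thus stepped upward between 14 and 16 h and between 18 and 20 h and rose again to 26 h. In the arrays after the comparison, the average stayed between 2.83 and 3.39 from 28 to 42 h, fell to 1.49 at 48 h and lay between 2.15 and 2.57 from 50 to 58 h. Replication genes averaged 0.52 at 20 h and 0.82 at 26 h and were back at -0.03 at 58 h. The 42 cytosolic ribosomal protein genes, shown for scale, averaged 0.04 at 26 h.

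**Figure D3:**
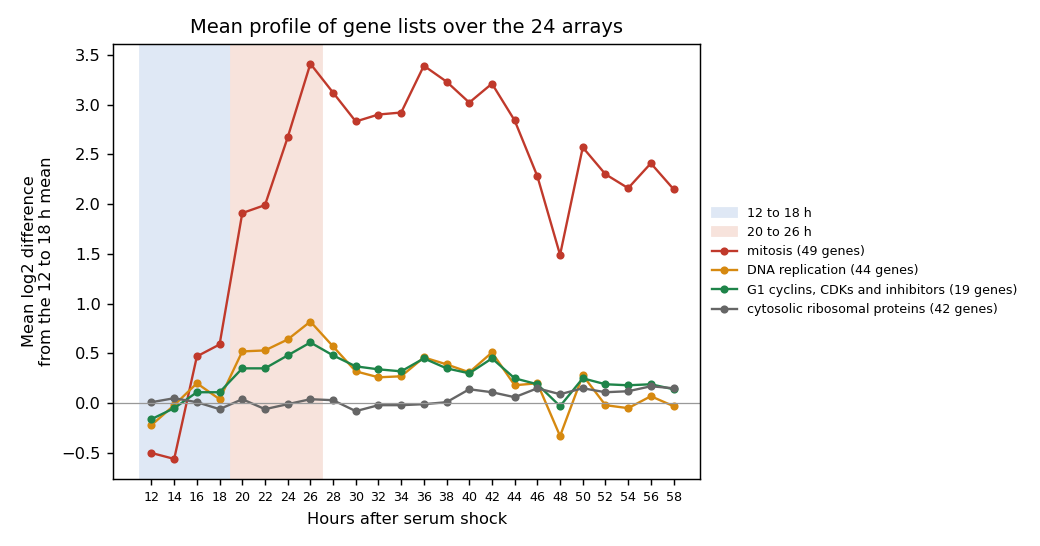
Mean log2 difference from the 12 to 18 h mean of each gene, over the measured genes of 4 lists, against hours after serum shock for the 24 arrays, with the compared windows shaded. The mitosis list rose to 3.41 at 26 h and DNA replication to 0.82, while cytosolic ribosomal proteins averaged 0.04 there.

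These calls depended on single arrays more than the differences did. Without the array of 24 h, 19 of the 49 mitosis genes, 12 of the 44 replication genes and 1 of the 19 G1 genes were called. Without the array of 14 h the counts were 38, 18 and 1, and without the filter on low values 0, 0 and 0, with a median adjusted p of 0.123 for the mitosis genes. Every mitosis and every replication gene that was fitted stayed above 0 under each alternative filter, scaling, variance prior, set of arrays and form of time, and the mitosis median then lay between 2.10, with the arrays of 14 to 24 h alone, and 2.84.

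Falls were fewer and held no list as a whole. The largest among genes measured in both windows was Sprr2h, a small proline-rich protein gene of epithelia. It was at 10.09, 10.02, 8.88 and 8.64 and then at 7.90, 7.85, 7.74 and 7.32, a difference of -1.70 ± 0.32 (SE, n = 4 and 4; limma's adjusted p = 0.0165). Its probe set may also read related Sprr2 genes, by the ending of its name (_s_at). Most of this fall lay between 14 and 20 h.

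The nuclear long noncoding RNAs Neat1 and Malat1 fell. Neat1, which builds paraspeckles, was at 13.35, 12.98, 12.75 and 12.79 and then at 11.81, 11.61, 11.68 and 11.19, a difference of -1.40 ± 0.16 (SE, n = 4 and 4; limma's adjusted p = 0.00789), 2.63-fold lower. Malat1, of nuclear speckles, went from 15.05, 14.88, 14.66 and 14.01 to 13.99, 13.30, 13.70 and 13.36, a difference of -1.06 (limma's adjusted p = 0.0232). For Malat1 the array at 18 h lay just above that at 20 h. In the 16 arrays after 26 h Neat1 lay between 11.55 and 12.93.

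S100a9, a calcium-binding alarmin, fell from 9.5, 9.98, 9.09 and 9.44 to 8.56, 8.41, 8.59 and 7.63, a difference of -1.21 (limma's adjusted p = 0.0188). Cd53, a tetraspanin of blood cells, went from 8.28 at 12 h to 5.75 at 26 h, a difference of -1.43 (limma's adjusted p = 0.0232), while the leukocyte marker Ptprc lay at 2.17 to 2.23 on all 8 arrays. The collagenase Mmp13 fell by 0.89. The remaining 6 of the 12 largest falls were H2ac19, a histone gene, at -1.49, Tmem125 at -1.19, Zfp950 at -1.12, 4930445K14Rik at -1.06, Myl6, a myosin light chain, at -1.02 and Gigyf2, a translational regulator, at -0.93. Another kept probe set of Gigyf2 gave 0.068, so its fall belongs to 1 probe set. The H2ac19 probe set (_x_at) may read other histone genes.

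The core clock was measured in 12 of 17 genes on the array, and Cry1 alone passed the test, 1 of 12, against 5.75% of all genes called higher and 3.26% called lower. Cry1, a repressor of CLOCK and BMAL1, was at 8.02, 7.74, 7.01 and 6.75 and then at 8.11, 9.23, 9.47 and 9.51. It fell to 18 h and then climbed, and the array at 20 h lay just above that at 12 h. Its difference was 1.70 ± 0.36 (SE, n = 4 and 4; limma's adjusted p = 0.0232). The call was lost without the array of 14, 16, 24 or 26 h, and the difference was then 1.56 to 1.82.

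Nr1d1, the repressor REV-ERB alpha, was at 7.40, 8.15, 8.26 and 7.92 and then at 7.68, 6.75, 5.73 and 5.07. It was highest at 16 h and fell at each later array, and the windows overlapped at 20 h. The difference was -1.63 ± 0.48 (SE, n = 4 and 4; limma's adjusted p = 0.0666). Nr1d2, REV-ERB beta, was highest at 18 h, 12.14, and lowest at 26 h, 10.07, a difference of -0.71 with limma's adjusted p = 0.265.

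Per2, a period repressor, was at 6.06, 5.24, 7.13 and 7.69 and then at 8.20, 8.48, 7.88 and 7.30. It was highest at 22 h, and its window difference of 1.43 ± 0.48 (SE, n = 4 and 4) had limma's adjusted p = 0.0933. Per1 moved from 5.77 at 12 h to 6.61 at 22 h, a difference of 0.18 (limma's adjusted p = 0.517). Cry2 was at 8.07 at 12 h and 9.12 at 22 h, a difference of 0.31 (limma's adjusted p = 0.301).

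Arntl, which encodes BMAL1, was at 8.58, 8.0, 7.16 and 6.54 and then at 6.80, 7.40, 7.91 and 8.34. It fell to 18 h and rose by 26 h, so the window means, 7.57 and 7.61, differed by 0.05 although the gene spanned 2.04 log2 units. Clock, its partner, differed by -0.10, Rora by 0.04 and Bhlhe40 by 0.10. The casein kinase genes Csnk1d and Csnk1e, whose products phosphorylate PER, differed by 0.01 and 0.08. The adjusted p of these 6 genes by limma was 0.528 or more.

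The list of clock outputs, chosen with earlier results of this series known, had 14 measured genes, of which 2 rose and none fell. Lonrf3, a ubiquitin ligase gene, was at 5.50, 5.26, 5.25 and 6.21 and then at 6.35, 6.59, 7.01 and 7.06, a difference of 1.20 (limma's adjusted p = 0.0196). Tfrc, the transferrin receptor, rose by 0.29 (limma's adjusted p = 0.0201). Dbp, a circadian transcription factor of the PAR bZIP family, was at 11.23, 12.04, 12.41 and 12.42 and then at 12.06, 11.76, 10.85 and 9.69, a difference of -0.93 with overlapping windows. Tef, of the same family, was highest at 20 h, at 9.96, and differed by 0.31.

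The hours 36 to 50 fall 24 h after those compared, and the difference between the 8 h contrasts of both days was tested in a limma fit over all 24 arrays. The later contrast also spans a change between 42 and 44 h in genes outside the clock. The 31 genes of the ATF4 list averaged 0.04 at 42 h and 1.73 at 44 h against their mean at 12 to 18 h. A difference between days cannot be told apart from that change. Of all genes, 30.3% were called for a different contrast. Of the 26 measured core clock and output genes, 7 were called, 1 of the 12 in the core clock and 6 of the 14 outputs. Cry1 rose by 2.41 a day later against 1.70, with limma's adjusted p = 0.316 for the difference, and Per2 by 1.47 against 1.43 (limma's adjusted p = 0.976). Nr1d1 differed by -1.08 a day later against -1.63 (limma's adjusted p = 0.626). Arntl differed by 1.16 against 0.05, and the adjusted p of that difference by limma was 0.11. The sign of the contrast was the same on both days in 8 of the 12 core clock genes and 9 of the 14 outputs. The 8 include genes near 0, such as Csnk1d, at 0.01 and 0.06, and Csnk1e, at 0.08 and 0.22. No share over all genes is given, so these counts do not show that the contrast recurred.

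**Figure D4:**
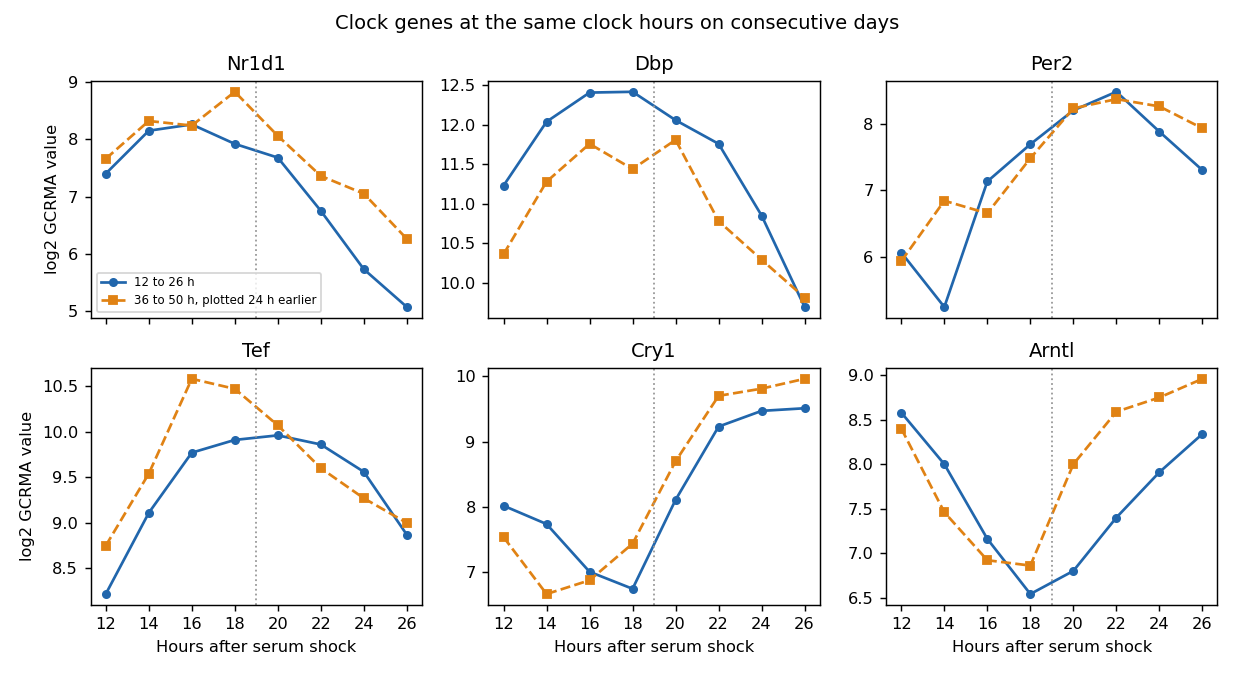
Log2 values of 6 clock genes against hours after serum shock, for the 8 arrays of 12 to 26 h (solid) and for the arrays of 36 to 50 h plotted 24 h earlier (dashed), 1 array per point, with a dotted line between the windows. Nr1d1 and Dbp fell toward 26 h, Per2 was highest at 22 h on both days, Cry1 rose to 9.51 at 26 h, and Arntl was lowest at 18 h on both days.

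In the lists that follow, most counts are small, and 5.75% of all genes rose and 3.26% fell, and each count is to be read against these shares. Of 17 measured genes of fatty acid synthesis, 3 rose and none fell. Fads2, the delta-6 desaturase, was at 8.68, 8.56, 9.13 and 8.88 and then at 9.45, 9.69, 10.02 and 10.27, a difference of 1.05 ± 0.18 (SE, n = 4 and 4; limma's adjusted p = 0.0132). Fads1, the delta-5 desaturase next to it in the pathway, rose by 0.88 (limma's adjusted p = 0.0111), and Scd2, a stearoyl desaturase, by 0.39 with overlapping windows. Of 18 genes of cholesterol synthesis 1 rose, Dhcr7 by 0.34. Among 14 genes of sterol sensing and uptake, Stard4 rose by 0.36 and Npc2 by 0.27, and Nr1h3, the receptor LXR alpha, fell by 0.59. Nr1h3 read 5.76 at 20 and 22 h and again on many later arrays, so that value may not be a measured level.

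A few genes of fat oxidation and storage fell. Of 26 of oxidation, 2 fell and none rose: Bdh1, a ketone body dehydrogenase, from 9.36, 9.53, 8.99 and 9.06 to 8.45, 8.46, 8.46 and 8.21, by 0.84 (limma's adjusted p = 0.0117), and Acadvl by 0.20. Of 16 of triglyceride and lipid droplets, 2 fell and none rose. Dgat1, which makes triglyceride, fell by 0.61, with the earlier window level at 10.03 to 10.13 and the later at 9.16 to 9.76. Agpat2, an acyltransferase of the same route, fell by 0.39.

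Of 22 measured genes of glycolysis, 3 rose: Slc16a3, a lactate exporter, by 0.90, the enolase Eno2 by 0.73 and the aldolase Aldoc by 0.63. Eno2 was at 5.47, 5.74, 6.04 and 6.15 and then at 6.61, 6.61, 6.61 and 6.5. The value 6.61 recurs for this gene at 28, 52 and 56 h, so it may not be a measured level, and the reason was not tested. Of 14 of gluconeogenesis and glycogen, Pygb, a glycogen phosphorylase, rose by 0.53 and Pck2 by 0.31. Among 25 targets of the hypoxia factor, some of them also in other lists, Pdk1 rose by 0.45 and P4ha2 by 0.33, and Narf fell by 0.29, while another probe set of Pdk1 gave -0.03.

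Hepatocyte functions held few calls. Of 26 measured genes of xenobiotic metabolism 2 rose and 1 fell. Aldh3a1, an aldehyde dehydrogenase, was at 9.32, 9.0, 9.76 and 9.41 and then at 10.17, 10.32, 10.93 and 11.25, a difference of 1.29 ± 0.24 (SE, n = 4 and 4; limma's adjusted p = 0.0159). Gsta3, a glutathione transferase, rose by 0.57, and Ugt2b34, a glucuronosyltransferase, fell by 0.32. None of 14 apolipoproteins and carriers passed the test, with a median of -0.19, and 1 of 19 acute phase, complement and coagulation genes did, Apcs, at -0.88 with overlapping windows. Of 19 liver transcription factors 1 fell, Cebpa, by 0.28.

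Stress and inflammatory lists held 4 calls or fewer each. Of 31 heat shock genes 4 rose, with a list median of 0.00, and 6 were higher and 1 lower at an unadjusted p under 0.05 by limma. Over all genes, 13.1% were higher and 15.8% lower at that level. Cryab, a small heat shock protein, was at 6.93, 6.47, 7.0 and 6.81 and then at 7.78, 7.88, 7.70 and 8.71, a difference of 1.22 ± 0.22 (SE, n = 4 and 4; limma's adjusted p = 0.0142). Hspa4l rose by 0.31 and the cochaperone Bag3 by 0.26. Of 26 NRF2 and redox genes 3 fell, Gss, which makes glutathione, by 0.57, Pgd, of the pentose phosphate pathway, by 0.29 and Sqstm1, an autophagy receptor, by 0.18.

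Of 28 NF-kappaB and chemokine genes 2 fell, Cxcl10 by 0.84 and Cxcl2 by 0.50, and of 22 interferon-inducible genes Iigp1 fell by 0.49. At an unadjusted p under 0.05 by limma, 3 of the 28 were higher and 9 lower, and 1 of the 22 was higher and 2 lower. Over all genes these shares were 13.1% and 15.8%. Of 31 genes of the ATF4 and amino acid response, Mthfd2, of mitochondrial folate, rose by 0.68 and Ddit3, the factor CHOP, fell by 0.50. Unadjusted, 8 of the 31 were higher and 3 lower. Of 21 targets of p53, 18 lay above 0, with a median of 0.18, and 7 were higher and 0 lower at an unadjusted p under 0.05 by limma. Gtse1 alone passed the adjusted test, at 5.72, 5.58, 5.96 and 5.96 and then at 7.04, 6.85, 8.12 and 8.48, a difference of 1.82 (limma's adjusted p = 0.0153). Gtse1 encodes a microtubule-binding protein of G2 and S phase, and Cdkn1a, the p53 target of the G1 list, differed by 0.10.

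Several groups held no call by limma at an adjusted p under 0.05. Over all genes, 13.1% were higher and 15.8% lower at an unadjusted p under 0.05, and the counts below are to be read against these shares. Of 30 immediate early factors none was called, with 7 lower and 0 higher at an unadjusted p under 0.05, and Junb came nearest at -0.21 (limma's adjusted p = 0.0593). Of 22 actin, SRF and YAP targets none was called, with 4 higher and 2 lower at an unadjusted p under 0.05. Of 27 endoplasmic reticulum chaperones none was called, with 1 higher and 6 lower at an unadjusted p under 0.05, and Xbp1 came nearest at -0.23. Of 36 proteasome genes none was called, with 0 higher and 5 lower unadjusted, and Psmd6 was nearest at -0.13. Of 17 glucocorticoid-responsive genes, 11 of polyamine synthesis and 16 of IGF and insulin signalling none was called, with 2, 2 and 8 past an unadjusted p of 0.05. The nearest of these were Errfi1 at -0.24, Odc1 at 0.21 and Igf2 at -0.85 (limma's adjusted p = 0.0503).

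The large housekeeping groups had medians between -0.08 and 0.03 and few calls. Of 54 ribosome biogenesis genes 3 rose, Tcof1 by 0.34, Ncl by 0.19 and Npm1 by 0.18, with a list median of -0.08. Of 42 cytosolic ribosomal proteins 1 fell, Rpl12, by 0.67, and of 76 mitochondrial ribosomal proteins 1 fell, Mrps28, by 0.48. In that last list 61 of 76 lay below 0, with 21 lower and 2 higher at an unadjusted p under 0.05, where 56.5% of all genes lay below 0. Of 74 genes of oxidative phosphorylation, Cox7a1 rose by 0.41 and Ndufs8 fell by 0.33, 64 lay below 0, and 13 were lower and 1 higher at an unadjusted p under 0.05. Of 19 aminoacyl-tRNA synthetases Vars rose by 0.34. Of 44 splicing factors and CLK kinases, Clk1 fell by 0.44 and Hnrnpab rose by 0.16, and another probe set of Hnrnpab gave -0.178. Of 35 lysosome and autophagy genes 2 rose, among them Ctsz by 0.23, and 2 fell, among them Neu1 by 0.40. Of 35 genes of matrix, integrins and TGF beta, Tgfb1 rose by 0.32 and Mmp13 fell.

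**Figure D5:**
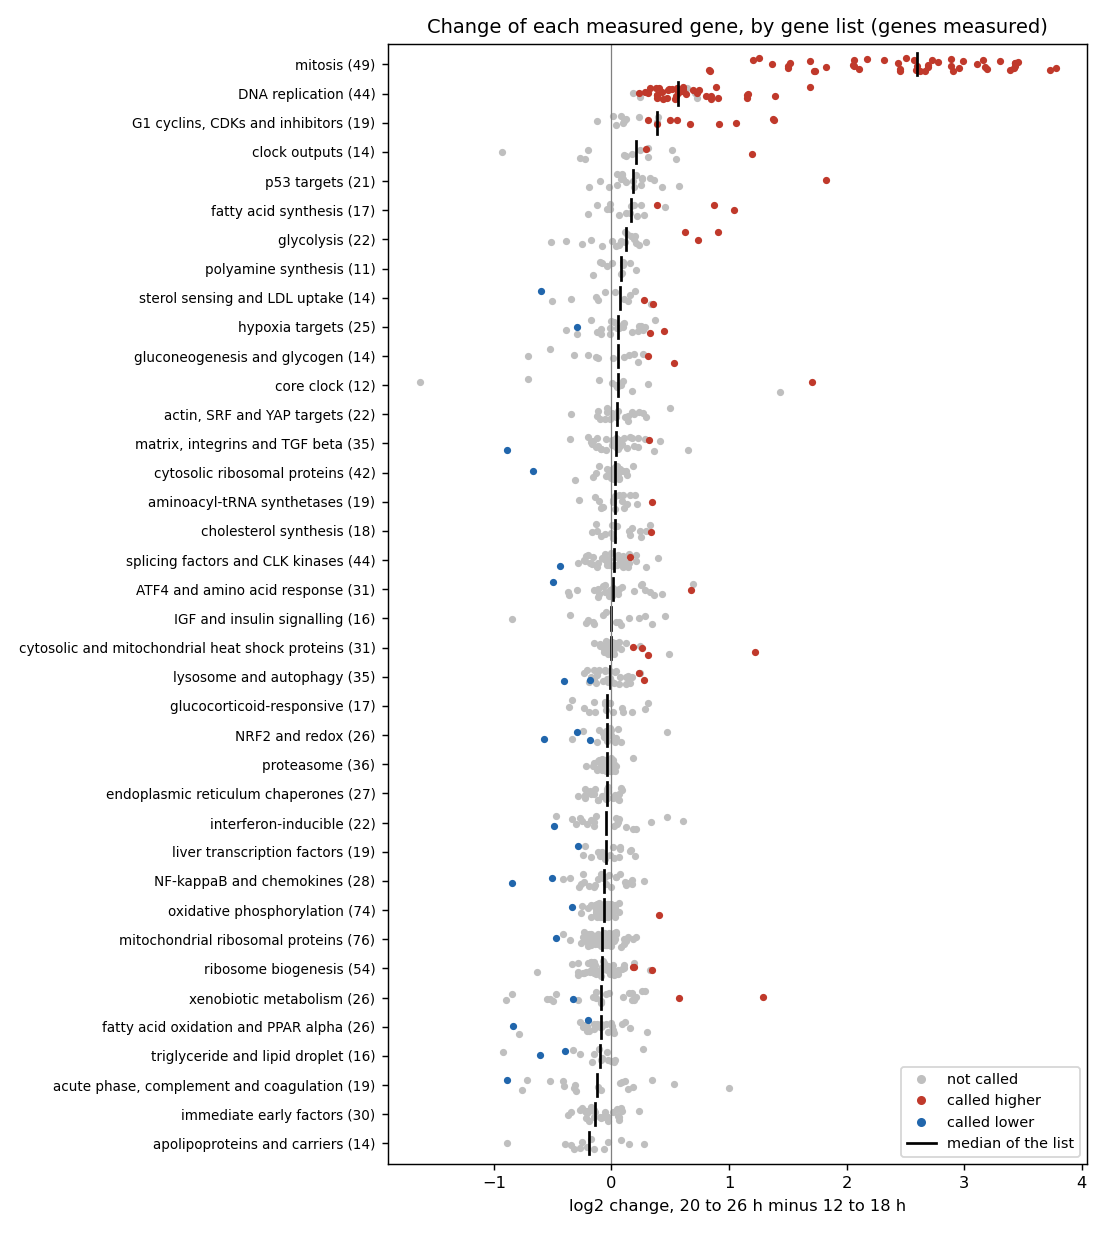
Log2 difference of each measured gene, 20 to 26 h minus 12 to 18 h, by gene list, with the number of measured genes in brackets, the list median as a black bar, and genes that passed the test coloured by direction. The 49 mitosis genes that passed the filter lie at 0.83 or above and the 44 replication genes above 0, while the medians of the other lists lie between -0.19 and 0.39.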

How the data were processed

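RNA of 24 time points was measured on Affymetrix mouse arrays. The deposited table gives 1 log2 value for each probe set and array, and the submitters' processing notes name GCRMA, which corrects background by probe sequence and normalizes arrays together. Its version is not given in the sources used here, and that the values are log2 was read from their range. Values at the table's lowest, 2.17, are only upper bounds. Some probe sets also repeat a value of their own on several arrays, such as 6.61 for Eno2 and 5.76 for Nr1h3. The table held 45101 probe sets. GEO's platform annotation gave 34958 of them 1 symbol, 932 several and 9211 none. Of the first, 34754 matched a RefSeq gene by Entrez ID. A gene was represented by its kept probe set of highest mean over the 8 arrays.

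Windows were compared with limma 3.58.1 in R 4.3.3 (intensity trend, threshold 0.05), checked on simulated data. The simulated noise was independent between arrays and had no trend within a window, so that check does not cover such trends. The members and lists were chosen with earlier results of these data known, and lists are described by counts. Named were all measured core clock genes, the 12 largest rises and falls among called genes with both means at least 5 and windows apart, and from each other list the 3 called genes of largest change with both means at least 5 or, failing any call, that of smallest p. Other genes are additions made with their values in view.

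Alternatives changed the filter, scaling, variance prior, arrays in the fit, form of time, arrays left out and probe set.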

Additional observations from a re-analysis of the deposited data

Results flagged for a closer look

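With 1 array per time, an array that stands apart in its window may be a step of the time course. Of 210 windows of 4 arrays over the 105 named entries, 17 held an array far from the other 3, and chance flags about 1 window in 20. The array at 26 h was the far one in 7. It held Pola1 at 9.65 against 9.43 to 9.45, Fads1 at 10.44 against 10.09 to 10.13 and Npm1 at 14.84 against 14.75 to 14.77. It also held Rora at 9.32 against 9.59 to 9.62, Nr1h3 at 5.29 against 5.68 to 5.76, Bdh1 at 8.21 against 8.45 to 8.46 and Eno2 at 6.5 against 6.61. The 5.76 of Nr1h3 and the 6.61 of Eno2 recur on other arrays and may not be measured levels. The array at 20 h was the far one for Cd53, at 6.45 against 5.73 to 5.82, Myl6, at 6.62 against 6.11 to 6.13, and Cxcl10, at 7.39 against 6.76 to 6.84. The array at 16 h stood apart for Stard4 at 10.73 against 10.60 to 10.62, Pck2 at 10.34 against 10.22 to 10.23 and Cox7a1 at 7.21 against 7.58 to 7.59. The array at 18 h stood apart for Csnk1e at 9.66 against 9.93 to 9.97 and Hnrnpab at 14.60 against 14.71 to 14.73. Xbp1 stood at 14.15 at 12 h against 13.96 to 13.99, and Pgd at 12.44 at 22 h against 12.24 to 12.25.

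The 8 h contrast differed between days, by the limma test of that difference, in 7 of 26 core clock and output genes. Of all genes, 30.3% were called. The later contrast spans the change between 42 and 44 h given above, from which these differences cannot be told apart. Clock differed by -0.10 here and 0.53 a day later, a change of 0.63. Nfil3, a repressor of D-box genes, differed by 0.55 and 1.88, a change of 1.33. Tsc22d3, a glucocorticoid-induced gene, differed by 0.31 and 0.80, a change of 0.48, and Coq10b by -0.23 and 0.34, a change of 0.57. Wee1, a kinase that holds back mitosis, differed by 0.51 and -0.07, a change of -0.59, Nampt by 0.17 and -0.19, a change of -0.36, and Tfrc by 0.29 and -0.75, a change of -1.04.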

How the results depend on the processing

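Against 973 probe sets higher and 605 lower, the filter on low values mattered most: without it 2 and 3 were called, and 3 and 4 when the variance prior also had no trend, an alternative chosen after seeing the data. The arrays of 14 to 24 h alone gave 109 and 16. A straight line over the 8 arrays gave 1745 and 2646, and the fit over all 24 arrays 1119 lower. Leaving out 1 array in turn gave 163 to 1619 higher and 57 to 1884 lower, fewest without 24 h and most without 18 h, with 296 and 78 without 14 h, 383 and 98 without 12 h, 463 and 139 without 26 h, and 314 lower without 16 h. The cause was not tested. The stricter filter, both scalings and the prior without a trend kept both counts within 1.5 times. The day difference, called in 7 clock genes, was called in 4 to 7 with 1 array left out. Directions turned for genes near 0 or in another probe set. Arntl gave -0.052 as a straight line and -0.296 to 0.384 with 1 array left out, Csnk1d -0.054 to 0.044, and -0.041 with the inner arrays, where Clock gave 0.002. Other probe sets gave 0.068 for Gigyf2, -0.035 and -0.132 for Rora, -0.009, -0.231 and -0.005 for Csnk1d, -0.197 for Csnk1e, -0.030 for Pdk1, 0.160 for Psmd6 and -0.178 for Hnrnpab. No paired analysis was possible because each time point had 1 array and the replicate numbers only name the arrays. Signal near the table's lowest value limits the 45 called genes with a window mean under 5.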

Other observations

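Some gene families, taken by their symbols and chosen after their values were seen, are given as counts with no test of the family. Of 18 measured Cenp genes, which build the centromere, 14 rose and none fell, with a median of 1.45 and a range of -0.02 to 3.78, and 16 of the 18 were in no list, of which 12 rose. Of 10 condensin and shugoshin genes, 9 rose, with a median of 1.44, and of the 6 in no list 5 rose. Sgo1, which protects sister cohesion, was at 5.08, 5.31, 6.39 and 6.53 at 12 to 18 h and at 7.70, 7.62, 8.52 and 9.08 at 20 to 26 h. All 9 tubulin genes rose, by 0.40 to 1.69. Of 24 Kif motor genes 10 rose, with a median of 0.13, but of the 17 in no list 3 rose, with a median of 0.02.

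Among DNA repair genes, the tumour suppressor Brca1 was at 6.47, 6.96, 7.70 and 8.03 and then at 8.57, 8.87, 9.10 and 9.38, a difference of 1.69, and Brca2 rose by 1.26. Of 6 Fanc genes 1 rose, Fancg, by 0.73. Of 7 E2f genes 3 rose: the atypical repressors E2f8, by 2.35, and E2f7, by 1.92, and the activator E2f1, by 0.56.

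Taken by their symbols, 4 histone genes were measured, and all 4 fell, against 3.26% of all genes. H1f2 was at 12.56, 12.71, 12.36 and 12.41 and then at 11.88, 12.05, 11.94 and 11.62, a difference of -0.64. H2bc22 differed by -0.67, H2bc21 by -0.79 and H2ac19 by -1.49. The probe sets of these last 3 may read other histone genes, by the endings of their names.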
